A study of Capra hircus with 3 samples.

Results

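The genes of the casein cluster and of the major whey proteins are described here in the lactating mammary gland of Laoshan dairy goats. They are CSN1S1, CSN3, PAEP, LALBA and GLYCAM1, 5 of the 14666 genes that the deposited expression table identifies by a single NCBI gene ID among its 50041 rows. They were found by their gene IDs, and each had a single row. In addition, every row between CSN1S1 and CSN3 on their scaffold was taken as context, which added 2 rows.

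Mammary tissue was taken by surgery, under xylazine anaesthesia and with no experimental treatment named, from 5 Laoshan dairy goats of 4 years in the third lactation, on day 10 (early), day 90 (peak) and day 210 (late) after parturition. Equal amounts of the RNA of the 5 goats were pooled, so each stage was represented by 1 library of whole tissue and no variation between goats could be measured. There are therefore no replicates, no errors and no p-values for the values below. The unit was FPKM, the number of fragments scaled to transcript length and to the mapped reads of the library, so that levels can be set side by side between genes. Whether each deposited value comes from a single quantification or is a mean of several is not given in the sources used here. Reads per row were not used here, and the counting error of each FPKM is unknown. The libraries are named early-labelled, peak-labelled and late-labelled after the GEO labels. In the parts of the study's supplementary tables that could be compared, transcripts of its library named L follow the column labelled peak, and those of its library named P follow the column labelled late. None of the members could be looked up there. The labels were followed, which of the assignments holds was not tested, and the values with both columns exchanged are given at the end.

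Milk proteins are made by the luminal secretory cells of the mammary alveoli. The caseins assemble with calcium phosphate into micelles, with kappa-casein at the micelle surface, and the casein genes lie side by side in the genome of mammals. The whey proteins remain in solution when the caseins are precipitated. Their genes respond to prolactin through STAT5, together with glucocorticoids and insulin.

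All 5 genes were at least 2-fold lower in the peak-labelled than in the early-labelled library, and the 4 genes with a value above 0 in the late-labelled library were at least 2-fold higher there than in the peak-labelled library. CSN3 differed most, 6.38-fold between early and peak, and CSN1S1 least, 2.09-fold. Between the early-labelled and late-labelled libraries, each of these 4 genes differed by less than 2-fold, with log2 ratios from -0.03 for PAEP to 0.65 for CSN1S1. LALBA was listed at 0 in the late-labelled library. In whole tissue, fewer secretory cells and less milk protein RNA per cell cannot be told apart.

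**Figure D1:**
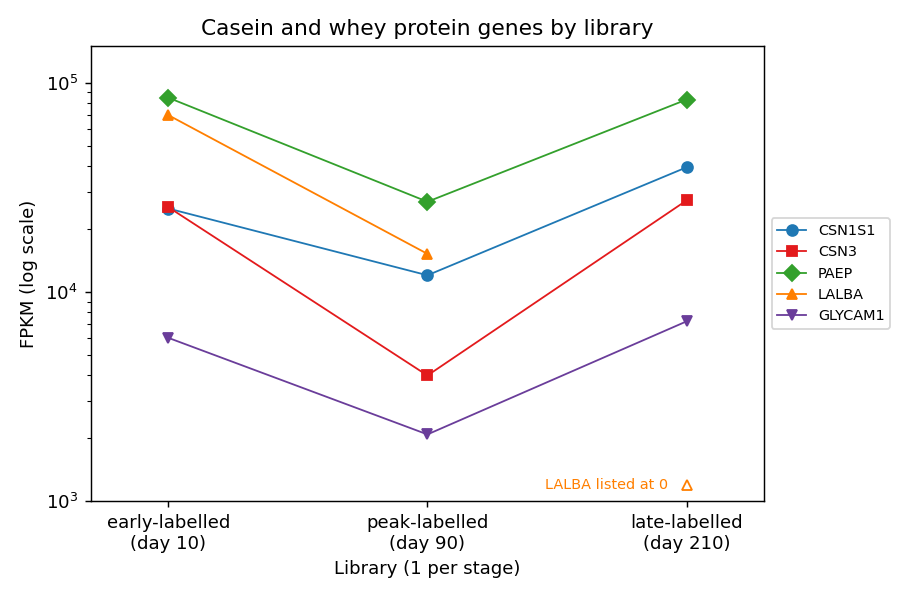
FPKM (log axis) of the 5 genes in the early-labelled, peak-labelled and late-labelled libraries, with 1 point per library and gene. Every gene was lowest among its values above 0 in the peak-labelled library, PAEP was the highest gene in all 3 libraries, and the open symbol, drawn at the foot of the axis with no value, marks LALBA, listed at 0.

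CSN1S1 encodes alpha-S1-casein, a calcium-sensitive casein of the micelle interior. Its row (gene ID 100750242) lies on scaffold NW_005100697.1 from 295417 to 307108, in an assembly that the table does not name and for which the methods name more than one goat genome. CSN1S1 had 25057 FPKM in the early-labelled, 12017 FPKM in the peak-labelled and 39445 FPKM in the late-labelled library. It was thus highest in the late-labelled library, by a log2 ratio of 0.65 over the early-labelled one, and this was the largest late-over-early ratio of the 4 genes. The log2 ratio of peak over early was -1.06, only just past 2-fold.

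CSN3 encodes kappa-casein, which stabilises the micelle and is the substrate of chymosin in cheese making. It is listed on the same scaffold from 511321 to 524967 (gene ID 100861231). CSN3 had 25445 FPKM in the early-labelled, 3989 FPKM in the peak-labelled and 27391 FPKM in the late-labelled library. The early-labelled and late-labelled values were close, with a log2 ratio of 0.11, while the log2 ratio of peak over early was -2.67.

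As a result, the balance of CSN1S1 and CSN3 differed between libraries, and this balance does not depend on how a library is scaled. It is not the balance of all caseins, since CSN2 (beta-casein) and CSN1S2 (alpha-S2-casein) had no row by their gene IDs. CSN1S1 and CSN3 were nearly equal in the early-labelled library, with a ratio of 0.985. The ratio of CSN1S1 to CSN3 was 3.01 in the peak-labelled and 1.44 in the late-labelled library. The sum of CSN1S1 and CSN3 relative to PAEP was 0.595 in the early-labelled, 0.593 in the peak-labelled and 0.804 in the late-labelled library.

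PAEP encodes beta-lactoglobulin, the main whey protein of ruminants and a lipocalin that binds small hydrophobic molecules. PAEP (gene ID 100861187) had 84874 FPKM in the early-labelled, 26999 FPKM in the peak-labelled and 83113 FPKM in the late-labelled library. It ranked first among all genes with a gene ID in each library. The log2 ratio was -1.65 for peak over early and 1.62 for late over peak. Its row spans 375924 nt of scaffold NW_005100784.1, from 3508226 to 3884149, and is listed for 5 genes. The other 4 genes of this span (GTF3C5, GBGT1, RALGDS and KCNT1, named after their values were seen) had at most 6.26 FPKM, and none was 2-fold lower in the peak-labelled than in the early-labelled library.

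LALBA encodes alpha-lactalbumin, the regulatory subunit that directs the galactosyltransferase B4GALT1 to make lactose. Its row (gene ID 100860779) lies on scaffold NW_005100666.1 from 20596230 to 20598246. LALBA had 70053 FPKM in the early-labelled and 15214 FPKM in the peak-labelled library, a log2 ratio of -2.20, and ranked second among genes with a gene ID in both. In the late-labelled library it was listed at 0, so no fold is given for that library. Whether this 0 is a measured level or an estimate that failed cannot be told apart from the table, and sums over the 5 genes in that library count LALBA as 0.

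GLYCAM1 encodes a mucin-like glycoprotein of whey and of the milk fat globule, also known as PP3. It lies on the same scaffold as LALBA, from 15242744 to 15246034 (gene ID 100860769). GLYCAM1 had 6037 FPKM in the early-labelled, 2085 FPKM in the peak-labelled and 7237 FPKM in the late-labelled library. It was the lowest of the 5 genes in the early-labelled and peak-labelled libraries, and its log2 ratio was -1.53 for peak over early and 0.26 for late over early. The ratio of PAEP to GLYCAM1 was 14.1 in the early-labelled, 12.9 in the peak-labelled and 11.5 in the late-labelled library. This pair of whey genes kept closer proportions than CSN1S1 and CSN3 did. The ratio of LALBA to PAEP varied more than that of PAEP to GLYCAM1, at 0.825 in the early-labelled and 0.564 in the peak-labelled library.

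In descending order of level, the early-labelled library had PAEP, LALBA, CSN3, CSN1S1 and GLYCAM1. The peak-labelled library had PAEP, LALBA, CSN1S1, CSN3 and GLYCAM1. The late-labelled library had PAEP, CSN1S1, CSN3 and GLYCAM1, with LALBA listed at 0. Without replicates, it cannot be said which neighbours in these orders differ beyond the variation between goats.

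Together the 5 genes held 20.8% of the FPKM sum of all rows in the early-labelled, 6.57% in the peak-labelled and 16.9% in the late-labelled library. With LALBA left out, the shares were 13.9%, 4.91% and 16.9%, so the order of the early-labelled and late-labelled libraries turned when that gene was left out. Among the 10 rows with the highest mean FPKM, 4 were members (all but GLYCAM1), 1 was the unnamed row beside CSN1S1 described below and 5 had no gene ID. Of those without a gene ID, XLOC_017441, XLOC_053674 and XLOC_055330 were highest in the peak-labelled library and XLOC_020674 in the early-labelled one. The row with the highest mean, XLOC_043394, also has no gene ID. It alone held 30.0%, 46.0% and 29.9% of the sum in the early-labelled, peak-labelled and late-labelled libraries. This row was highest in the peak-labelled library, where the members were low. When each library was rescaled to the FPKM of all rows other than the members and this row, the log2 ratio of CSN1S1 for peak over early was -0.86 and no longer reached 2-fold, while that of CSN3 was -2.48.

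Of the 14522 genes above 0 FPKM in both libraries, 7.51% were at least 2-fold lower and 10.7% at least 2-fold higher in the peak-labelled than in the early-labelled library, against 5 of 5 members that were lower. Abundant genes were more often lower: of 342 genes with a mean of at least 100 FPKM, 22.2% were at least 2-fold lower, and their median log2 ratio was -0.60. The median log2 ratio of the members was -1.65. Among these 342 genes, 3 had a lower ratio than CSN3, 9 a lower one than LALBA, 27 than PAEP, 35 than GLYCAM1 and 70 than CSN1S1. CSN1S1 was therefore within the lower range shared by many abundant genes, and CSN3 near its end.

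Between the late-labelled and peak-labelled libraries, 9.38% of 14365 genes were at least 2-fold higher and 16.2% at least 2-fold lower in the former, against 4 of the 4 members with a ratio that were higher. Of 340 genes with a mean of at least 100 FPKM, 24.4% were at least 2-fold higher. The log2 ratios of late over peak were 2.78 for CSN3, 1.80 for GLYCAM1, 1.71 for CSN1S1 and 1.62 for PAEP, with a median of 1.76. Both comparisons share the peak-labelled library and are not independent of each other. Between the late-labelled and early-labelled libraries, 2.1% of 14319 genes were at least 2-fold higher and 5.71% at least 2-fold lower, and none of the 4 members with a ratio was in either class.

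**Figure D2:**
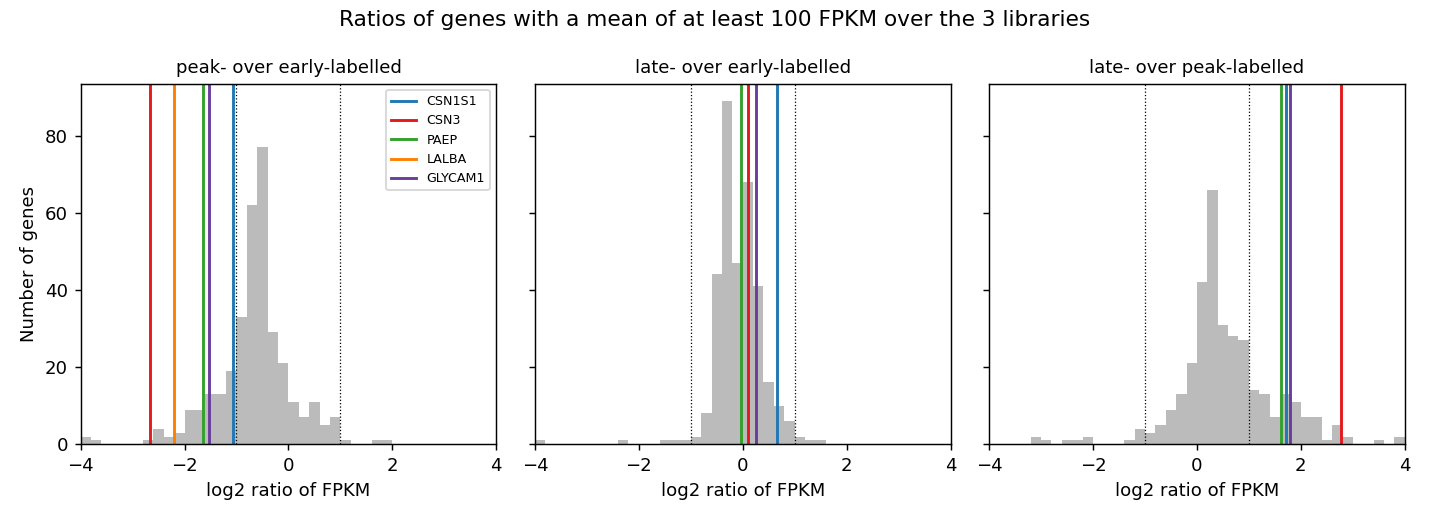
Histograms (number of genes) of the log2 ratio of FPKM over genes with a mean of at least 100 FPKM, for peak over early, late over early and late over peak, with ratios beyond 4 in either direction drawn at the edge and dotted lines at 2-fold. Coloured lines mark the members, which lie left of 2-fold in the first panel, inside it in the second and right of it in the third. LALBA appears in the first panel only, since it is listed at 0 in the late-labelled library.

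The casein cluster itself was covered by few rows. In the ARS1.2 gene table, CSN2 (beta-casein), CSN1S2 (alpha-S2-casein), LOC102178810 and ODAM lie between CSN1S1 and CSN3, in addition to a tRNA and a lncRNA gene. Of these, LOC102178810 alone had a row by its gene ID. The other row between CSN1S1 and CSN3 carries the gene ID 106502215, for which the gene table used here has no entry, and no name is given to it.

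The row of gene ID 106502215 lies on scaffold NW_005100697.1 from 308906 to 314964, 1797 nt beyond the end of CSN1S1. It had 21191 FPKM in the early-labelled, 9163 FPKM in the peak-labelled and 32040 FPKM in the late-labelled library. Its pattern was close to that of CSN1S1, with log2 ratios of -1.21 for peak over early and 0.60 for late over early. It was the sixth row of the whole table by mean FPKM, at the level of the caseins.

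LOC102178810, a predicted protein-coding gene, lies from 408379 to 431666, that is 101270 nt beyond the end of CSN1S1. It had 132 FPKM in the early-labelled, 19.5 FPKM in the peak-labelled and 130 FPKM in the late-labelled library. Its level was far below that of the caseins, but its log2 ratios of -2.76 for peak over early and -0.02 for late over early were near those of CSN3. A fixed list of 20 genes of the cluster and its neighbours had 5 in the table, CSN1S1 and CSN3 included, and 4 of these had a ratio of peak over early. The 2 at least 2-fold lower by that comparison were CSN1S1 and CSN3 themselves, against 7.51% of all genes. By late over peak, 3 of the 5 were at least 2-fold higher, against 9.38% of all genes. These were again CSN1S1 and CSN3, and a gene of at most 1.64 FPKM. The cluster thus held 2 rows with a log2 ratio of peak over early between -1.21 and -1.06 at the CSN1S1 end and 2 rows between -2.76 and -2.67 towards CSN3.

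Outside the cluster, the nearest row on the CSN1S1 side has no gene ID, ends 11466 nt before it and had at most 1.19 FPKM. The nearest row on the CSN3 side, RWDD1, starts 213808 nt beyond it and had 1.78, 1.63 and 2.02 FPKM in the early-labelled, peak-labelled and late-labelled libraries. Neither was lower in the peak-labelled library by 2-fold, and the row on the CSN1S1 side was lowest in the early-labelled library.

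**Figure D3:**
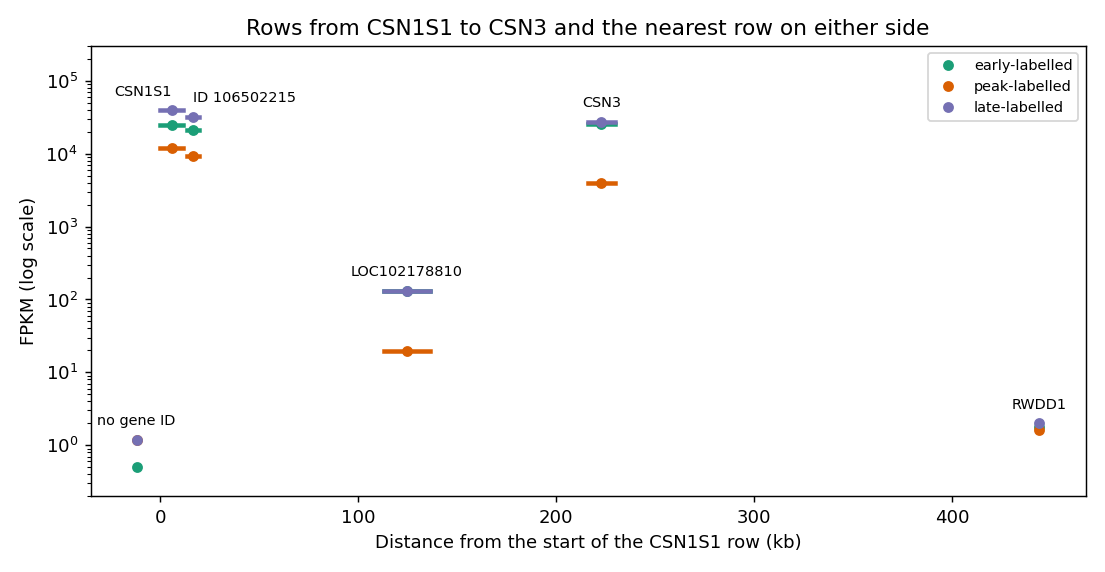
FPKM (log axis) of each row from CSN1S1 to CSN3 and of the nearest row on either side, against distance in kb from the start of CSN1S1, with a bar for the span of a row and colours for the libraries. The 4 rows of the cluster lie lowest in the peak-labelled library, with the gap widest for LOC102178810 and CSN3.

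The row of LALBA was the single one of the 46 rows that reached 1000 FPKM in any library and was listed at 0 in another. Of the 525 rows that reached 100 FPKM, 4 were listed at 0 in another library, and all 4 of these zeros were in the late-labelled library. The rows around LALBA were therefore examined, a choice made after its values had been seen. Within 50 kb, 1 row without a gene ID lies before LALBA, with 0.894, 1.37 and 2.72 FPKM in the early-labelled, peak-labelled and late-labelled libraries, and was not lowest in the peak-labelled one. In the same window, 9 rows follow LALBA on the scaffold, and all 9 were above 0 in the late-labelled library.

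The nearest of them, XLOC_009255, starts 2225 nt beyond LALBA and had 73.5 FPKM in the early-labelled, 12.9 FPKM in the peak-labelled and 80.5 FPKM in the late-labelled library. The next, XLOC_009256, had 27.3, 4.72 and 29.8 FPKM in the same order, and XLOC_009257 had 7.57, 1.86 and 8.49 FPKM. Of these 3 rows, the nearer to LALBA had the higher level in each library, and their log2 ratios of peak over early, -2.52, -2.53 and -2.02, lay on either side of the -2.20 of LALBA. In the late-labelled library, where LALBA was listed at 0, these 3 rows were at or above their early-labelled level. The strand and the transcripts of these rows were not analysed here, and whether they derive from LALBA was not tested.

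**Figure D4:**
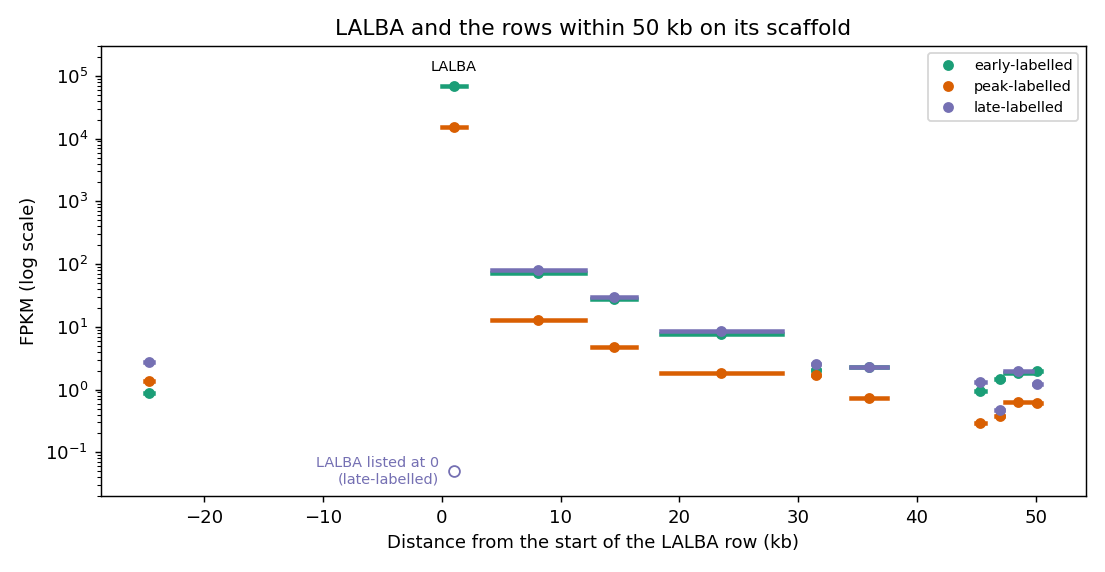
FPKM (log axis) of LALBA and of the rows within 50 kb on its scaffold, against distance in kb from the start of LALBA, with a bar for the span of a row and colours for the libraries. The 3 nearest rows after LALBA reach 80.5, 29.8 and 8.49 FPKM, and all 9 are above 0 in the late-labelled library, in which LALBA (open symbol, drawn near the foot of the axis with no value) is listed at 0.

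A run of rows without a gene ID also lies before GLYCAM1. Within 50 kb there were 16, with a median of 1.79 FPKM in the early-labelled, 0.525 FPKM in the peak-labelled and 3.45 FPKM in the late-labelled library. Of these, 2 were listed at 0 in the peak-labelled library, and the other 14 were all at least 2-fold lower there than in the early-labelled library, with log2 ratios from -2.68 to -1.19. Of the 9 rows after LALBA, of which LOC102170391 alone has a gene ID, 8 were at least 2-fold lower by the same comparison. Of 33488 rows without a gene ID above 0 in both libraries, 17.8% were at least 2-fold lower. The rows of each run lie side by side and cannot be counted as independent, so this share is no measure of either run. Before GLYCAM1, no row exceeded 0.933 FPKM in the peak-labelled library. The only row after GLYCAM1 within 50 kb, PDE1B, had 1.09, 1.58 and 0.664 FPKM in the early-labelled, peak-labelled and late-labelled libraries. It was highest in the peak-labelled library. The 4 rows within 50 kb after the span listed for PAEP had log2 ratios of peak over early from 0.41 to 0.93. That span of 375924 nt is shared by 5 genes, and the place of PAEP within it is not given. The distance of these rows from PAEP is therefore unknown, and they cannot be set beside the rows around LALBA and GLYCAM1. Not all of them have a span of their own.

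Other proteins of milk and of the milk fat globule were found for 18 of 28 listed genes. Of these, 10 were at least 2-fold lower and none at least 2-fold higher in the peak-labelled than in the early-labelled library, with a median log2 ratio of -1.22. Between the late-labelled and peak-labelled libraries, 12 were higher and 2 lower. The highest, FABP3 (a fatty acid binding protein) and BTN1A1 (butyrophilin of the milk fat globule membrane), had log2 ratios of peak over early of -2.44 and -1.24. CD36, a fatty acid receptor of the same membrane, had 685, 179 and 782 FPKM in the early-labelled, peak-labelled and late-labelled libraries, and the peroxidase LPO had 178, 61.4 and 300 FPKM. The shares of all genes at least 2-fold lower and higher were 7.51% and 10.7% for peak over early. For late over peak they were 16.2% and 9.38%, and both pairs also stand beside the lists below.

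LTF encodes the iron-binding whey protein lactoferrin. LTF had 1074 FPKM in the early-labelled, 556 FPKM in the peak-labelled and 75.3 FPKM in the late-labelled library. It was thus lowest in the late-labelled library, with a log2 ratio of -3.83 over the early-labelled one, and was the 1 gene of this list 2-fold apart between these libraries.

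Of 7 listed partners of LALBA in lactose synthesis, 4 were at least 2-fold lower in the peak-labelled than in the early-labelled library and the same number at least 2-fold higher in the late-labelled than in the peak-labelled library. B4GALT1, the catalytic subunit of lactose synthase, had 381 FPKM in the early-labelled, 121 FPKM in the peak-labelled and 447 FPKM in the late-labelled library. The other 3 genes were in neither class, and among them the hexokinase HK1, named after its values were seen, was highest in the peak-labelled library, with 9.42, 14.8 and 10.8 FPKM. UGP2, which makes UDP-glucose, had log2 ratios of -1.84 for peak over early and 0.05 for late over early. The UDP-galactose transporter SLC35A2 and the glucose transporter SLC2A1 had log2 ratios of peak over early of -1.41 and -1.11.

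Of 12 genes found for hormone signalling to the milk protein genes, 3 were at least 2-fold lower and 1 at least 2-fold higher in the peak-labelled than in the early-labelled library, with a median log2 ratio of -0.13. Over all genes above 0 FPKM in both libraries, 7.51% were lower and 10.7% higher to this extent. The prolactin receptor PRLR had 125 FPKM in the early-labelled, 67.9 FPKM in the peak-labelled and 131 FPKM in the late-labelled library. The STAT5-responsive feedback genes CISH and SOCS2 had log2 ratios of peak over early of -1.93 and -1.65. Between the late-labelled and early-labelled libraries, 2 genes of this list, SOCS1 and SOCS3, were at least 2-fold lower, against 5.71% of all genes. SOCS3, a feedback inhibitor of STAT3 signalling, had the opposite order, with 4.87, 10.7 and 1.69 FPKM in the early-labelled, peak-labelled and late-labelled libraries. STAT5A and STAT5B were among the 14 genes listed but could not be found by symbol and single gene ID, so no value is given for them.

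Among 15 transcription factors known from milk protein promoters, 1 was at least 2-fold lower and 2 at least 2-fold higher in the peak-labelled than in the early-labelled library. These counts were near the 7.51% lower and 10.7% higher among all genes above 0 FPKM in both libraries. The 2 that were higher stayed below 10 FPKM in every library. The 1 that was lower was ELF5, the ETS factor of the secretory alveolar lineage, with 879 FPKM in the early-labelled, 244 FPKM in the peak-labelled and 875 FPKM in the late-labelled library. Its log2 ratios were -1.85 for peak over early and -0.01 for late over early. Those of the members ranged from -2.67 to -1.06 for peak over early. For late over early, the 4 members with a ratio ranged from -0.03 to 0.65. The median log2 ratio of the list was -0.02.

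Genes of casein phosphorylation, glycosylation and folding and of calcium and phosphate transport into milk numbered 13, of which 3 were at least 2-fold lower in the peak-labelled than in the early-labelled library. These were the phosphate transporter SLC34A2, the FAM20C-activating FAM20A and the calcium pump ATP2B2, with log2 ratios of -3.29, -1.91 and -1.24. The share of all genes at least 2-fold lower by this comparison was 7.51%. ST3GAL1, a sialyltransferase, was 2-fold lower in the late-labelled than in the peak-labelled library, with a log2 ratio of -1.10. P4HB, the protein disulphide isomerase, was the highest gene of the list and had 379, 228 and 432 FPKM in the early-labelled, peak-labelled and late-labelled libraries.

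**Figure D5:**
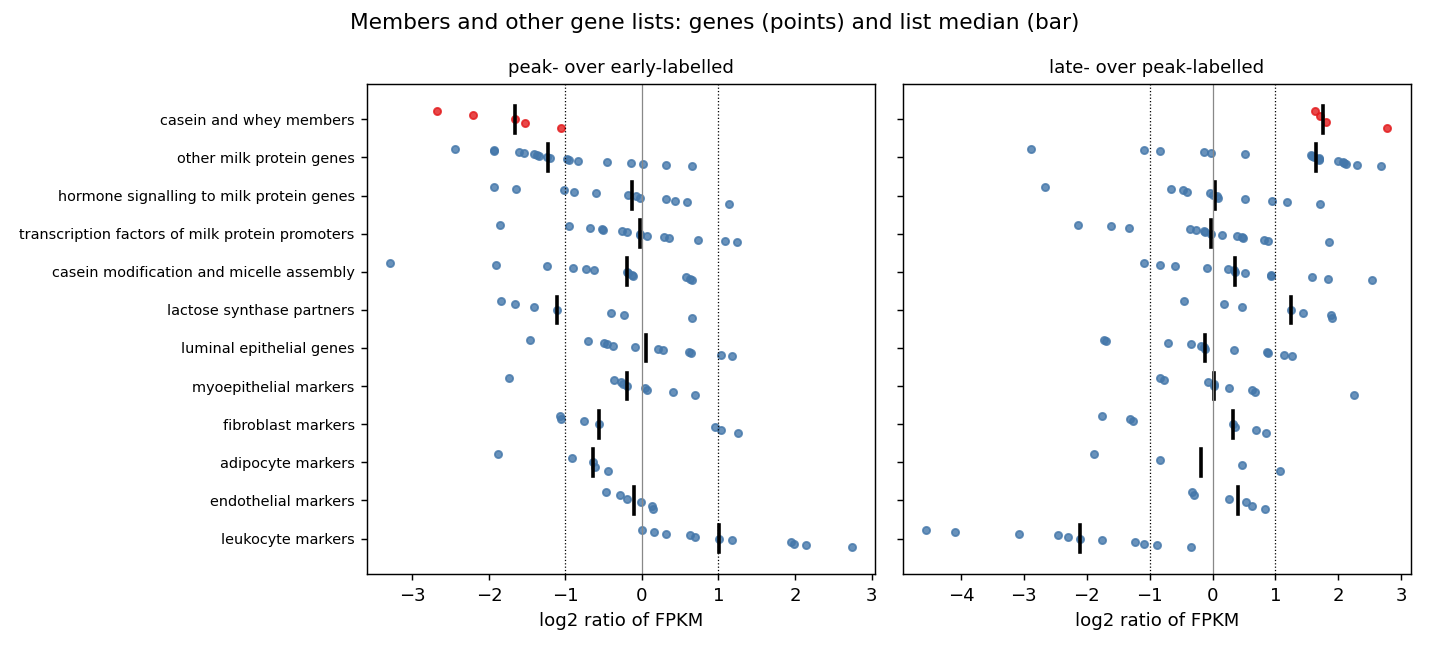
Log2 ratios of FPKM of the members (red points) and of the genes of each list (blue points), with black bars at the medians and dotted lines at 2-fold, for peak over early (left) and late over peak (right). The medians of the members, of other milk proteins and of the lactose synthase partners lie beyond 2-fold in both panels, that of the leukocyte markers lies beyond 2-fold in the opposite direction, and that of the luminal epithelial genes lies near 0, with single genes beyond 2-fold on both sides.

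Luminal epithelial genes went both ways. Of 12 found, 2 were at least 2-fold higher (KRT7 and ELF3) and 1 at least 2-fold lower (RAB25) in the peak-labelled than in the early-labelled library, and the median log2 ratio was 0.06. Between the late-labelled and peak-labelled libraries, 2 were at least 2-fold higher (RAB25 and ESRP1) and 2 at least 2-fold lower (KRT7 and ELF3), with a median of -0.12. KRT19, the highest of them, had 439, 413 and 364 FPKM in the early-labelled, peak-labelled and late-labelled libraries, and ESRP1 had 20.9, 12.8 and 28.3 FPKM. The summed level of these 12 genes was 945 FPKM in the early-labelled, 1031 FPKM in the peak-labelled and 891 FPKM in the late-labelled library. Taken relative to the median of these genes, the log2 ratios of the members for peak over early ranged from -2.73 for CSN3 to -1.12 for CSN1S1.

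Of 11 leukocyte markers with a ratio, 6 were at least 2-fold higher and none lower in the peak-labelled than in the early-labelled library. In the late-labelled library, 9 were at least 2-fold lower than in the peak-labelled library. The shares of all genes in these classes were 10.7% and 16.2%. In the late-labelled against the early-labelled library, 7 markers were at least 2-fold lower and none higher, with a median log2 ratio of -1.13. By that comparison 5.71% of all genes were lower, and none of the 4 members with a ratio was 2-fold apart. The summed level of the 12 markers, which goes the other way in that comparison, was 326 FPKM in the early-labelled, 545 FPKM in the peak-labelled and 367 FPKM in the late-labelled library, of which JCHAIN of plasma cells held 266, 429 and 337 FPKM. The pan-leukocyte gene PTPRC had 17.6, 39.9 and 8.08 FPKM, and CD3D, CSF1R and LYZ were also highest in the peak-labelled library. CD3E was listed at 0 in the early-labelled and peak-labelled libraries. The part of these cells in the level of the milk protein genes was not tested.

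The 9 myoepithelial markers, led by TAGLN, had a median log2 ratio of peak over early of -0.20 and a summed level of 466, 465 and 486 FPKM in the early-labelled, peak-labelled and late-labelled libraries. Of these, 1 (OXTR) was at least 2-fold lower in the peak-labelled than in the early-labelled library, and none was higher. By late over peak, OXTR alone was at least 2-fold higher, and none was lower. Its values were 3.83, 1.14 and 5.43 FPKM in the same order of libraries. Of 7 fibroblast markers, 2 were at least 2-fold lower (COL1A2 and COL3A1) and 2 at least 2-fold higher (FBLN1 and PDGFRA) in the peak-labelled than in the early-labelled library. DCN, at 131, 254 and 106 FPKM, stayed under 2-fold in that comparison. By late over peak, 3 fibroblast markers (FBLN1, PDGFRA and DCN) were at least 2-fold lower and none was higher. The summed level of the fibroblast markers was 690, 611 and 561 FPKM. None of 6 endothelial markers, led by PECAM1, differed 2-fold in any comparison, with sums of 143, 134 and 152 FPKM. The 5 adipocyte markers found summed to 21.99, 8.40 and 10.5 FPKM, of which ADIPOQ held 15.1, 4.10 and 5.69 FPKM, and PLIN4 was listed at 0 in the late-labelled library. Of the 4 adipocyte markers with a ratio of late over early, 3 were at least 2-fold lower and none was higher.

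For the 4 members above 0 in every library, LALBA being left out, the genes with the most similar pattern were sought among 4373 other genes with at least 10 FPKM in every library, by the Euclidean distance between their log2 ratios of peak over early and late over early. With 3 libraries, such a distance only describes the values. The 5 nearest to CSN1S1 were CAB39L, ST6GALNAC2, SEMA3A, SLC7A4 and the neighbouring gene ID 106502215, at distances from 0.12 to 0.16. The 5 nearest to CSN3 were C9, LOC102178810, GPAM, FABP3 and a gene without a symbol, at 0.14 to 0.27. The 5 nearest to PAEP (TSPYL2, CMTM8, ECHDC1, IRX1 and ACSL1) lay at 0.04 to 0.08, and the 5 nearest to GLYCAM1 (TPD52L1, ACADSB, CCL28, NEBL and USP54) at 0.02 to 0.09.

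Among these 4 members, PAEP and GLYCAM1 were the closest pair, at a distance of 0.32, and CSN1S1 and CSN3 the farthest, at 1.70. For CSN1S1 and for CSN3, a row of the casein cluster itself was among the 5 nearest genes.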

How the data were processed

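Reads were trimmed and aligned by the authors with TopHat2 2.0.9, and assembled with Cufflinks 2.1.1, per the submitters' processing notes and the methods. Assemblies were merged with Cuffmerge, Bowtie2 served to screen out structural RNAs, and abundance came from Cuffdiff. A stranded kit was used, and whether counting used strand is not given in the sources used here. FPKM was deposited by the authors per locus, with 1 column per library, assigned to the stages by the GEO labels. No other column of values per sample was present. Symbols and gene order came from the RefSeq ARS1.2 annotation, looked up by gene ID, and 13863 of 14666 gene IDs matched. Starts are written counted from 1. The table names no assembly, no genome was used, and sequences of the members were not analysed here.

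Rows of one gene ID were summed. Ratios were taken from FPKM as deposited, and a gene at 0 in either library got no ratio. No statistical test was run, because there is 1 library per stage. The members and gene lists were chosen with earlier results of these data known. Named in the text are the members, the rows of the casein cluster and its nearest neighbours, the 5 nearest patterns per member, the 10 most abundant rows, rows of at least 1000 FPKM listed at 0 elsewhere, and from each list up to 4 genes of at least 10 FPKM with the largest ratios past 2-fold and the most abundant gene. Rows around LALBA, GLYCAM1 and PAEP, LOC102170391, HK1, SOCS1, OXTR and markers cited for a 0, were added after their values were seen. Alternatives were a 4-fold threshold, a pseudocount of 1, other scalings, the highest row per gene, other denominators and filters on low FPKM, and exchanged columns. Python 3.11.15, numpy 2.4.6, pandas 2.3.3 and matplotlib 3.10.9 were used.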

Additional observations from a re-analysis of the deposited data

How the results depend on the processing

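With the columns labelled peak and late exchanged, the number of members at least 2-fold lower was 0 for peak against early, 5 for late against early and 4 for late against peak, and 0 were higher in late than in peak. The log2 ratios of peak over early became 0.65 for CSN1S1, 0.11 for CSN3 and 0.26 for GLYCAM1, and those of late over peak -1.71 for CSN1S1, -2.78 for CSN3, -1.62 for PAEP and -1.80 for GLYCAM1. The exchange gave shares of the FPKM sum of 16.9% in peak and 6.57% in late, ratios of CSN1S1 to CSN3 of 1.44 and 3.01, and of the sum of CSN1S1 and CSN3 to PAEP of 0.804 and 0.593. At a fold of at least 4, 2 members were lower in peak than in early (CSN3 and LALBA) and 1 was higher in late than in peak (CSN3), fewer by construction. Without the most abundant row, the members held 29.8%, 12.2% and 24.2% of the FPKM sum in early, peak and late, and 39.3%, 19.2% and 32.3% of the FPKM of rows with a gene ID. Without LALBA, chosen after seeing the data, the shares were 13.9%, 4.91% and 16.9%. The share of all genes 2-fold apart between late and early was 3.24% at a minimum of 1 FPKM in both libraries and 0.885% at 100 FPKM. Rescaling to all other rows, also applied to the counts after seeing the data, left 4 members lower in peak than in early. Centring on the median of the genes of at least 1 FPKM in both libraries left every count of members as it was. So did the luminal epithelial genes as reference, also added to the counts after seeing the data, and the highest row of each gene. A pseudocount of 1 was applied only to members above 0 in both libraries, not to LALBA in the late-labelled one, and at these levels it could hardly change a count. No paired analysis was possible because there is only 1 library per stage, and no replicate could be left out. The depth behind each FPKM is unknown.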

Other observations

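The deposited FPKM carried a mark in their last digits. Of the values, 42.7% in the early-labelled, 46.5% in the peak-labelled and 41.7% in the late-labelled library had more than 6 significant digits, and of these 95.9%, 99.4% and 97.3% ended in 5. The values of PAEP in the late-labelled library and of CSN3 in the early-labelled library were among them. What was done to give such digits, averaging of several values included, is not given in the sources used here, and its part in the values was not tested.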
